A study of Caenorhabditis elegans with 6 samples.

Results

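The srw and srbc genes encode members of 2 families of chemoreceptors of Caenorhabditis elegans. The members were all genes of the count table whose WormBase symbol starts with srw- or srbc- and that had 10 or more counts summed over the 6 libraries. This gave 61 members, 39 srw and 22 srbc genes, of 179 genes of these families in the table (108 srw and 71 srbc) and of 20447 genes in all. The other 118 family genes had under 10 counts, and 45 of the family had no count in any library.

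Nematode chemoreceptors are receptors with membrane-spanning helices that signal through G proteins, and most that have been studied sit in the cilia of amphid and phasmid sensory neurons, where they detect food odors, toxins and pheromones. Each receptor is usually made by few neurons, so its transcript is rare in RNA of whole worms. The srw and srbc families stand outside the large superfamilies of nematode chemoreceptors, and srw proteins resemble peptide receptors of other animals. Most members have no known ligand; the exceptions include SRBC-64 and SRBC-66, which act in the ASK neurons in the response to ascaroside pheromone that promotes dauer entry.

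EBAX-1 is the substrate receptor of a ubiquitin ligase through which certain microRNAs are destroyed, and the larval libraries were made to find mRNAs under its control, the adult ones to measure genes next to piRNAs that were altered in the mutant. Poly(A)+ RNA was sequenced from ebax-1(tm2321) L1 larvae (strain CZ9907, 2 libraries), wild-type L1 larvae (strain N2, 2 libraries), ebax-1(tm2321) gravid adults (strain FX02321, 1 library) and wild-type gravid adults (strain N2, 1 library). All worms were kept at 20 °C on E. coli OP50 and synchronized by bleaching; L1 larvae were collected starved after hatching overnight, adults after about 68 h with food, and libraries started from 3 µg of larval or 10 µg of adult total RNA. Each stage has 1 mutant strain, so loss of EBAX-1 and other differences between that strain and N2 cannot be told apart. Stage and mutant strain differ together, feeding differs between the stages, and the 2 larval libraries of a genotype are biological replicates by the study's methods. The study treats tm2321, a deletion, as a null allele, and reads from the rest of ebax-1 are still counted.

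Libraries held 10937932 to 13425500 counts in L1 larvae, 13148409 in ebax-1 adults and 21328335 in WT adults, so 1 count was worth between 0.0435 and 0.0931 CPM (counts per 1000000 counts of the library, scaled by TMM factors). ebax-1 itself had 501 and 523 counts in ebax-1 L1 larvae, against 970 and 873 in WT L1 larvae, and 275 in ebax-1 adults, against 1051 in WT adults. Markers of the cells that make chemoreceptors were present in every group: all 33 genes listed for ciliated sensory neurons were tested in L1 larvae, 0 were higher and 2 lower in the mutant (che-10 at -0.49 and che-3 at -0.31), and their summed level was 1035 and 1087 CPM in ebax-1 against 1167 and 1159 CPM in WT. In bulk RNA, fewer cells of a type and less RNA per cell cannot be told apart.

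The members were thinly covered. Their median total was 27 counts over the 6 libraries, and 53 had under 100. Members just inside the limit, with 10 or 11 counts, were srw-6, srw-23, srw-42, srw-48, srw-97, srw-113, srw-140, srbc-38, srbc-50, srbc-54, srbc-59 and srbc-67. Just outside it, with 8 or 9 counts, were srw-7, srw-15, srw-24, srw-60, srw-67, srw-84, srbc-8, srbc-37 and srbc-64, so of the 2 pheromone receptors SRBC-64 and SRBC-66 only srbc-66 was a member. Both families are concentrated on one chromosome: 51 of the 61 members lie on chromosome V, as do 162 of the 179 family genes, and the other members are on IV (5), II (3) and III (2). In the WBcel235 annotation, 30 members form 13 runs in which neighboring members are at most 10 kb apart, such as srw-68, srw-69 and srw-71 within 5.86 kb. Coding length, the part of a gene over which reads were counted, had a median of 1122 bases in srw and 883.5 bases in srbc members.

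In wild-type L1 larvae srw-85 and srw-86 stood above all other members. Per kilobase of coding sequence, srw-85 had a level of 3.30 CPM in ebax-1 L1 larvae and 67.5 CPM in WT L1 larvae, and srw-86 had 76.4 CPM in ebax-1 and 63.6 CPM in WT. The srw-86 model is short, with 273 coding bases in 2 coding exons, while srw-85 has 945 in 5. On this length-scaled level 19 members reached 1 CPM per coding kb in WT L1 larvae, 10 of them srw and 9 srbc. The next 3 after srw-85 and srw-86 were srbc-20, with 3.62 in ebax-1 and 7.22 in WT, srw-71, with 3.74 in ebax-1 and 5.95 in WT, and srw-145, with 7.12 in ebax-1 and 5.21 in WT.

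The comparison of ebax-1 with WT L1 larvae asked which of these transcripts differ in level in the mutant strain. Of the 61 members, 21 passed the filter on low counts and were tested, 13 srw and 8 srbc. In ebax-1 L1 larvae 4 of them fell, srw-85, srbc-24, srbc-16 and srbc-20, and none rose (edgeR, adjusted p below 0.05); among all 13756 genes tested, 9.97% fell and 6.59% rose. At an unadjusted edgeR p below 0.05 there were 5 of the 21 members, against 3920 of all 13756 genes. Besides the 4 called, these included srw-71, also below WT. DESeq2, with an adjusted p for 8 of the 21, called 2 lower (srw-85 and srbc-24) and 0 higher. Of the 21, 15 had a log2 fold change below 0 and 6 above it, with a median of -0.15 against 0.00603 over all genes tested. The filter acts on this count, since it asked for 2 L1 libraries of either genotype above 0.835 CPM before TMM scaling. For 4 of the 21 both WT libraries were above this limit but not both ebax-1 libraries. Among these 4, the called srbc-24 and srbc-16 had no ebax-1 library above it, so they could only pass by being higher in WT. For another 3 both ebax-1 libraries were above it but not both WT libraries. For 9 both pairs were above it, and 5 passed through 1 library of each genotype or other combinations.

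**Figure D1:**
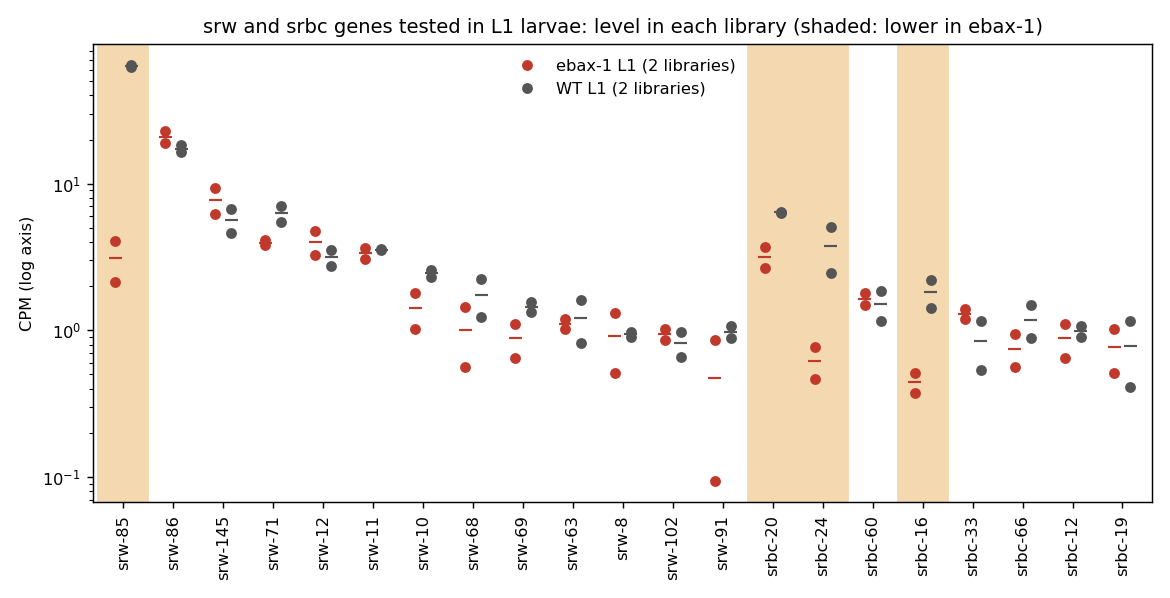
Level in CPM (log axis) of the 21 tested members in each L1 library, ebax-1 in red left of WT in gray, with short lines at the means of 2 libraries; srw genes stand left of srbc genes and the 4 genes called lower are shaded. For srw-85 both ebax-1 libraries (2.14 and 4.10 CPM) lie far below both WT libraries (64.7 and 62.9 CPM), while for srw-86 the groups are close.

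srw-85 (WBGene00005832, chromosome V, 19429387 to 19431136, minus strand, WBcel235) was the most abundant member in WT L1 larvae and fell the most in the mutant. It had 25 and 44 counts in ebax-1 L1 larvae, against 787 and 707 counts in WT L1 larvae. Its mean level was 3.12 ± 1.39 CPM in ebax-1 and 63.8 ± 1.28 CPM in WT (SD, n = 2 each). On the log2 scale it fell by 4.37 in ebax-1 (SE 0.175, edgeR adjusted p = 1.56e-13). The 2 mutant libraries differed from each other by less than they differed from either WT library, and the gene was called under all 11 alternatives, with log2 fold changes between -4.89 and -3.97.

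srbc-24 (WBGene00016692, chromosome V, 2151758 to 2153092, plus strand) had 9 and 5 counts in ebax-1 L1 larvae, against 30 and 57 in WT. The groups did not overlap, and on the log2 scale the gene fell by 2.57 (SE 0.463, edgeR adjusted p = 4.25e-04). It too was called under all 11 alternatives, between -3.01 and -1.97. srbc-16 (WBGene00016685, chromosome V, 2182038 to 2183191, plus strand) had 6 and 4 counts in ebax-1, against 27 and 16 in WT, and fell by 2.02 on the log2 scale (SE 0.517, edgeR adjusted p = 0.00898). With counts this low the call rested on single libraries: it was lost without WT replicate 1 (edgeR adjusted p = 0.182) and without ebax-1 replicate 2 (edgeR adjusted p = 0.0575).

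srbc-20 (WBGene00016693, chromosome V, 2147095 to 2148626, plus strand) was the best covered srbc gene. It had 31 and 40 counts in ebax-1 L1 larvae, against 78 and 71 in WT, which is 3.19 ± 0.759 CPM in ebax-1 and 6.37 ± 0.0684 CPM in WT (SD, n = 2 each). Its fold change of -1.01 (log2, SE 0.260, edgeR adjusted p = 0.00952) was the smallest of the 4. The call was lost without ebax-1 replicate 1 (edgeR adjusted p = 0.0682) and under DESeq2 (adjusted p = 0.060), where the log2 fold change was -0.78 and -1.01. The annotation places C45H4.21, a gene of the opposite strand, over part of srbc-20, and the counting separated strands.

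**Figure D2:**
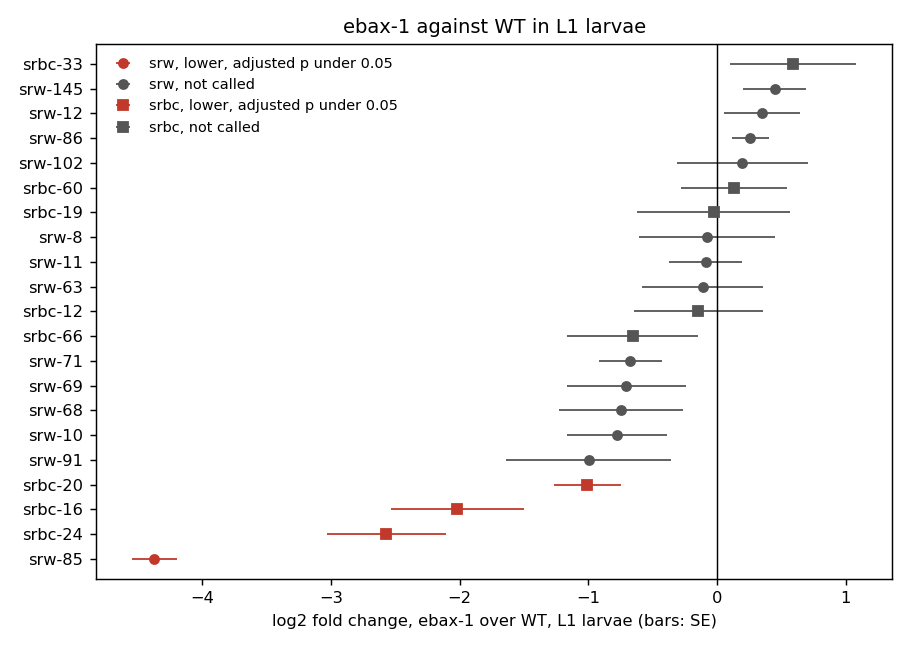
Log2 fold change of ebax-1 over WT L1 larvae (x axis) for the 21 tested members, ordered from the highest at the top; bars are SEs, circles are srw and squares srbc genes, red where adjusted p was below 0.05. srw-85 at -4.37 lies apart, srbc-24, srbc-16 and srbc-20 follow, and most other bars reach close to or across 0.

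The other 17 tested members were not called, with SEs of 0.144 to 0.641 on the log2 scale. srw-86 had 222 and 244 counts in ebax-1, against 223 and 184 in WT (log2 fold change 0.26, SE 0.144, edgeR adjusted p = 0.256). These values overlapped in counts but not in CPM, and when libraries were scaled by total counts alone the gene passed the test as higher (0.42, edgeR adjusted p = 0.0443). That scaling moved the median of all genes to 0.17, so srw-86 stood about as far above the median of all genes as in the TMM fit.

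srw-71, which lies next to srw-68 and srw-69, had 48 and 41 counts in ebax-1, against 86 and 62 in WT (log2 fold change -0.67, SE 0.247, edgeR adjusted p = 0.0676). Its groups did not overlap, and without a filter on low counts it passed the test (edgeR adjusted p = 0.0401). srw-68 had 17 and 6 counts in ebax-1, against 15 and 25 in WT, and srw-69 had 13 and 7 in ebax-1, against 19 and 15 in WT, with log2 fold changes of -0.75 and -0.70 and no call. All 3 genes of the run were thus below WT in the mean, none past the threshold.

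srw-145 had 73 and 100 counts in ebax-1, against 56 and 76 in WT, with overlapping groups (0.45, SE 0.244, edgeR adjusted p = 0.242). Without ebax-1 replicate 1 it passed the test as higher (0.71, edgeR adjusted p = 0.0333). srw-12 had 56 and 35 counts in ebax-1, against 43 and 31 in WT, and its neighbor srw-11 had 36 and 39 in ebax-1, against 43 and 40 in WT. The spans of these 2 models overlap on the same strand. Whether they share coding bases, over which reads were counted, was not examined. Neither gene was called (0.35 and -0.09).

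srw-10 on chromosome III had 21 and 11 counts in ebax-1, against 28 and 29 in WT, and did not pass the test (-0.78, SE 0.386, edgeR adjusted p = 0.191). The last of the 10 most abundant srw genes, srw-63, gave -0.11, and srw-8 gave -0.08. The pheromone receptor gene srbc-66 had 11 and 6 counts in ebax-1, against 18 and 10 in WT, and its log2 fold change of -0.65, with an SE of 0.509, leaves both no change and a fall of more than 2-fold within 2 SEs (edgeR adjusted p = 0.440). srbc-64, with 8 counts in all, had 5 and 2 in ebax-1 L1 larvae, 1 and 0 in WT L1 larvae and none in adults, too few for any comparison.

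Of the other abundant srbc genes, srbc-60 had 21 and 16 counts in ebax-1, against 14 and 21 in WT (0.13) and was close to 0, as were srbc-12 (-0.15) and srbc-19 (-0.03). srbc-33 had the highest log2 fold change of the 21 (0.59, SE 0.490, edgeR adjusted p = 0.473), with 14 and 15 counts in ebax-1, against 14 and 6 in WT. Its groups did not overlap in CPM. srbc-82, with 8 and 6 counts in ebax-1 and 17 and 6 in WT, failed the filter. The same held for srbc-40, with 5 and 2 counts in ebax-1 and 18 and 10 in WT, where the groups did not overlap.

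The 40 members that failed the filter could not be tested in L1 larvae. Over all 61, both ebax-1 L1 libraries were below both WT libraries in CPM for 17 members (27.9%) and above them for 11 (18%), and the groups overlapped for the rest. Of all 17738 genes with 10 or more counts, 24% had both ebax-1 libraries below and 25.8% above, so the members' shares were near those of all genes. In the other families of chemoreceptors by symbol, 208 of 1116 genes were tested, of which 2 were higher and 9 lower in ebax-1, and the median of their log2 values was -0.05. Among 33 tested genes for chemosensory signaling and receptor trafficking, 0 were higher and 2 lower: gpa-12 (-0.60) and gpa-9 (-0.48), both G protein alpha subunits. The odorant receptor gene odr-10, whose product detects diacetyl, fell by 0.33 on the log2 scale (edgeR adjusted p = 0.0180).

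Markers of other tissues moved in the same contrast. In ebax-1 L1 larvae 4 of 7 body wall muscle genes and 4 of 9 intestine genes were lower, 1 intestine gene (pept-1, 0.30) was higher, and 2 of 18 pan-neuronal genes were lower, egl-21 (-0.63) and egl-3 (-0.50). Of 5 tested hypodermis genes 0 were higher and 0 lower. Of the germline list 4 of 12 were higher, and of the maternal and embryo list 8 of 13, with summed levels of 250.1 and 197 CPM in ebax-1 against 118 and 115 CPM in WT for the maternal genes. Their part in the fall of the 4 receptor genes was not tested. No gene of these lists was at 0 in all libraries.

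The sum over the families shows how much of the difference one gene carried. The 39 srw members together had 54.7 and 60.4 CPM in ebax-1 L1 larvae, against 115.6 and 117.1 CPM in WT. srw-85 made up 3.91% and 6.78% of srw counts in ebax-1, against 56.0% and 53.7% in WT. Without it the srw sum was 52.5 and 56.3 CPM in ebax-1 and 50.9 and 54.2 CPM in WT, so these ranges overlapped. The 22 srbc members had 14.8 and 14.9 CPM in ebax-1, against 23.5 and 24.3 CPM in WT, and without srbc-16, srbc-20 and srbc-24 the sum was 10.9 and 10.3 CPM in ebax-1 and 12.4 and 11.5 CPM in WT. The genes left out were chosen by their calls, so these sums are a description.

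**Figure D3:**
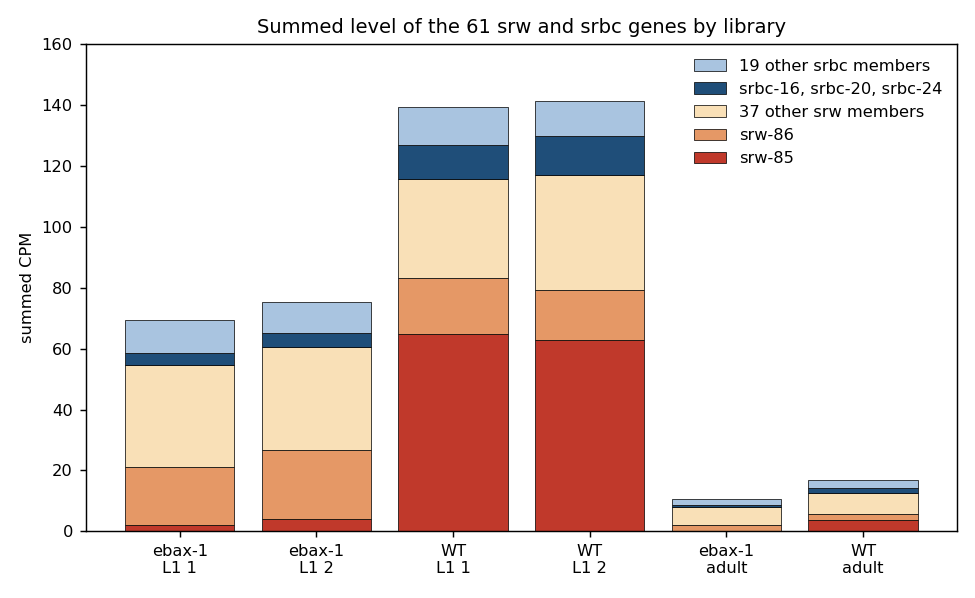
Summed CPM of the 61 members in each library (bars from 0), divided into srw-85, srw-86, the other srw genes, the 3 called srbc genes and the other srbc genes. The red block of srw-85 is 64.7 and 62.9 CPM in the WT L1 libraries, 2.14 and 4.10 CPM in the ebax-1 L1 libraries and small in both adults, while the blocks of srw-86 and of the other srw genes are of similar height in all L1 libraries.

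The 3 called srbc genes share a place in the genome that the rule did not use. srbc-20, srbc-24 and srbc-16 lie on the plus strand of chromosome V within 36.1 kb. Between them is srbc-19 on the minus strand, which had 6 and 11 counts in ebax-1, against 5 and 13 in WT, and did not fall (-0.03, edgeR adjusted p = 0.984). Directly beside srbc-16 is cyp-33C1, a cytochrome P450 gene whose start lies 2.52 kb from that of srbc-16. It had 28 and 30 counts in ebax-1, against 82 and 85 in WT (log2 fold change -1.47, SE 0.259, edgeR adjusted p = 3.43e-04). On its other side cyp-33C2 had 16 and 22 counts in ebax-1, against 40 and 34 in WT, and was not called (-0.90, edgeR adjusted p = 0.0850).

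The neighbors of srbc-20 and srbc-24 were too low to test: str-52 had no count, C45H4.13 had 5 and 3 counts in ebax-1 and 6 and 6 in WT L1 larvae, and srbc-23 had 1 count in all. Within 50 kb on each side of srbc-20, 5 of 12 tested genes fell, 41.7%, and within 50 kb of srbc-16, 8 of 17 fell, 47.1%, against 9.97% of all genes. Each of these counts includes the 2 other called srbc genes, the windows overlap, and they were drawn after the calls were seen. Of the called srbc genes, srbc-24 and srbc-16 could pass the filter only by being higher in WT. The shares are therefore a description. The share declined with the window, to 19.7% of 66 genes within 250 kb of srbc-20.

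No tested gene close to srw-85 fell with it. Within 50 kb on each side 24 genes were tested, none fell and 3 rose, and their log2 values had a median of 0.40. Within 250 kb 2 of 53 fell and 6 rose. The nearest gene on one side, C25F9.11, had 843 and 927 counts in ebax-1, against 740 and 681 in WT (0.38, edgeR adjusted p = 0.0105), and on the other side C25F9.2 had 43 and 50, against 63 and 72 (-0.48, edgeR adjusted p = 0.220). srw-86 starts 29.31 kb from srw-85 on the same strand.

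**Figure D4:**
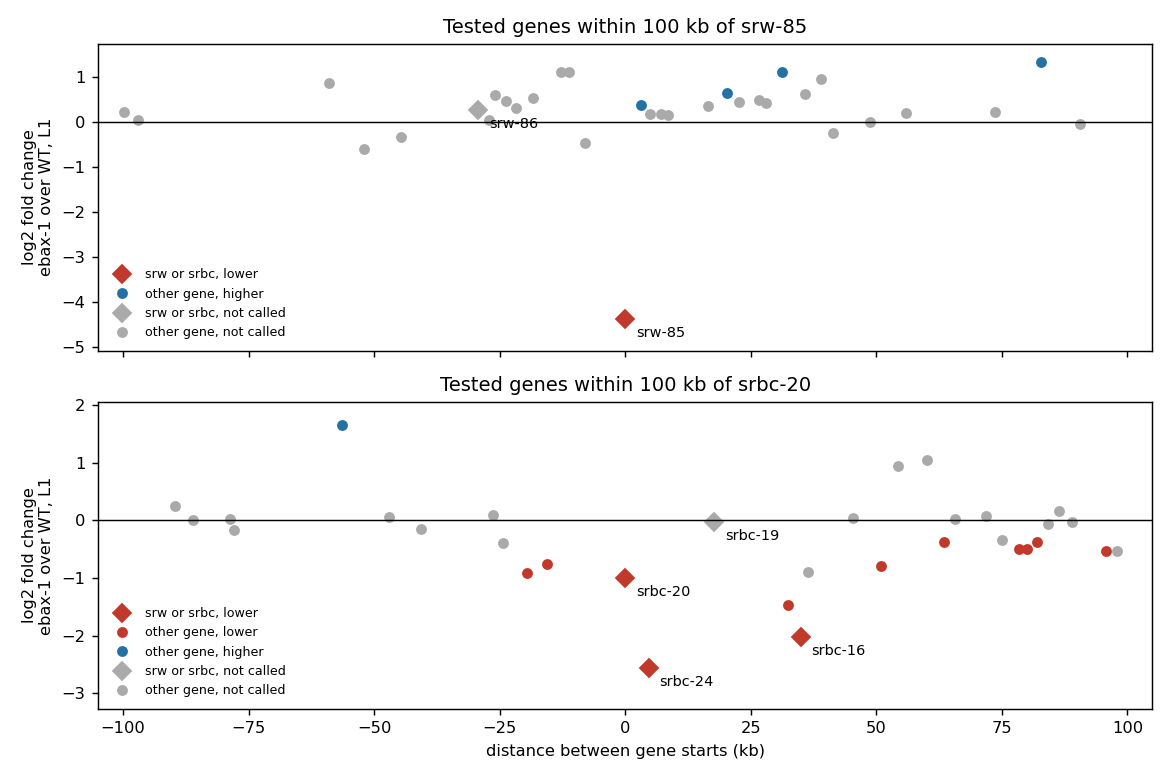
Log2 fold change of ebax-1 over WT in L1 larvae (y axis) of tested genes against the distance of their start from that of srw-85 (upper panel) or srbc-20 (lower panel) in kb; diamonds are srw or srbc genes, red lower, blue higher, gray not called. Around srw-85 no other tested gene within 100 kb fell and 4 rose. Around srbc-20 11 of 32 other tested genes fell and 1 rose, where 9.97% of all genes fell. The 11 include srbc-24 and srbc-16, which could pass the filter only by being higher in WT. The windows were drawn around called genes, so these counts are a description.

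In gravid adults the genotypes have 1 library each, so there is no replicate check and no test. Only 2 members, srw-85 and srw-86, reached 50 counts over both adult libraries, and srw-85 was at least 2-fold lower in ebax-1, as were 2.84% of all 13563 genes with 50 counts. srw-85 had 4 counts in ebax-1 adults, against 87 in WT adults, a ratio of ebax-1 over WT of 0.0707 (95% exact binomial interval 0.0188 to 0.188, counting error only). srw-86 had 28 counts in ebax-1 adults, against 48 in WT adults, and its ratio was 0.897 (0.542 to 1.46).

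srbc-20 had 9 counts in ebax-1 adults, against 33 in WT adults, a ratio of 0.419 with an interval of 0.176 to 0.896. srbc-24 had none in ebax-1 adults, against 8 in WT adults, and srbc-16 had none against 2. The 4 genes called in L1 larvae were thus each lower in ebax-1 adults as well, as were most members with an adult count. For srbc-16 the counts are within counting error. The interval also lay below 1 for srbc-24 and for srw-82, which had no count in ebax-1 adults and 8 in WT adults, and above 1 for 1 member, srw-33, with 11 counts in ebax-1 adults and 4 in WT adults. Intervals were computed for the 54 members with an adult count, with no adjustment for their number. By CPM, 37 of the 54 were lower in ebax-1 adults and 17 higher. The ebax-1 adult library was the shallower, with 25 members at 0 counts against 12 in the WT adult library. The same intervals and split over all genes are not given here, so those of the members are a description only.

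The difference between the genotype effects in adults and L1 larvae was tested in a fit over all 6 libraries, in which the lone adult libraries are assumed to vary like the larval ones. None of 32 members tested was called by edgeR, against 9.15% of all genes, and DESeq2, which gave an adjusted p for only 2 of them, called 0. For srw-85 the effect in adults minus that in L1 larvae was 0.59 on the log2 scale (SE 0.918, edgeR adjusted p = 0.796), and for srbc-20 it was -0.24 (SE 0.662, edgeR adjusted p = 0.909). The SEs leave room for differences of about 2-fold or more in either direction. The smallest p-values were those of srw-33 (3.77, SE 1.47, unadjusted p = 0.0157, edgeR adjusted p = 0.115) and srw-71 (1.52, SE 0.623, unadjusted p = 0.0212, edgeR adjusted p = 0.140), the only 2 members with an unadjusted p below 0.05. They were followed by srw-8, srw-94 and srbc-51, with edgeR adjusted p of 0.351, 0.412 and 0.485. Over all 16376 genes tested, 3467 had an unadjusted edgeR p below 0.05 in this contrast. srw-33 had 1 and 2 counts in ebax-1 L1 larvae against 5 and 6 in WT. srw-71 had 20 counts in ebax-1 adults (1.34 CPM) against 17 in the deeper WT adult library (0.7395 CPM).

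Most members were lower in gravid adults than in starved L1 larvae. Summed over the 61 members, adults had 10.6 CPM in ebax-1 and 16.97 CPM in WT, and L1 larvae had 69.5 and 75.3 CPM in ebax-1 and 139 and 141 CPM in WT. Of 32 members tested in the 6-library fit, 29 were lower in adults and none was higher, against 43.6% and 45.2% of all 16376 genes. At an unadjusted edgeR p below 0.05 there were also 29, against 14602 of all 16376 genes, and DESeq2 called 24 lower and 0 higher. This count had little room to come out otherwise, since 27 of the 32 passed the filter through L1 libraries only and 5 with an adult library above the limit. Over all 61 members, both adult libraries were below all 4 L1 libraries in CPM for 40 (65.6%) and above them for 2 (3.28%), against 40.6% and 42.3% of all genes with 10 or more counts. The mean was higher in L1 larvae for 52 members and in adults for 9.

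The 5 members with the highest mean level in adults were srw-85, srw-86, srw-71, srbc-20 and srw-145. All 5 fell in adults. srw-85 had 0.268 CPM in ebax-1 adults against 3.12 CPM in ebax-1 L1 larvae, and 3.79 CPM in WT adults against 63.8 CPM in WT L1 larvae. Its log2 fold change, averaged over genotypes, was -3.78 (SE 0.266, edgeR adjusted p = 2.46e-14). srw-86 had 1.87 CPM in ebax-1 adults against 20.9 CPM in ebax-1 L1 larvae, and 2.09 CPM in WT adults against 17.4 CPM in WT L1 larvae (-3.26, SE 0.188, edgeR adjusted p = 1.50e-16).

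srw-145 (-3.26), srw-71 (-2.32) and srbc-20 (-2.26) fell by similar or smaller amounts. The 3 members tested but not called were srw-17 (-0.34), srbc-40 (-0.96) and srw-33 (0.50). Of the 32, only srw-33 had a value above 0, and in the mutant libraries alone it was higher in adults (2.38, edgeR adjusted p = 0.0399). The 2 members whose adult libraries were both above all L1 libraries were srw-140, with 5 counts in each adult library and 0, 0, 0 and 1 in L1 larvae, and srw-48, with 3 in ebax-1 adults, 5 in WT adults, and 2, 0, 0 and 0 in L1 larvae. Both failed the filter. At the other end, 7 members had no count in either adult library, srw-6, srw-79, srw-108, srbc-3, srbc-5, srbc-38 and srbc-54.

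**Figure D5:**
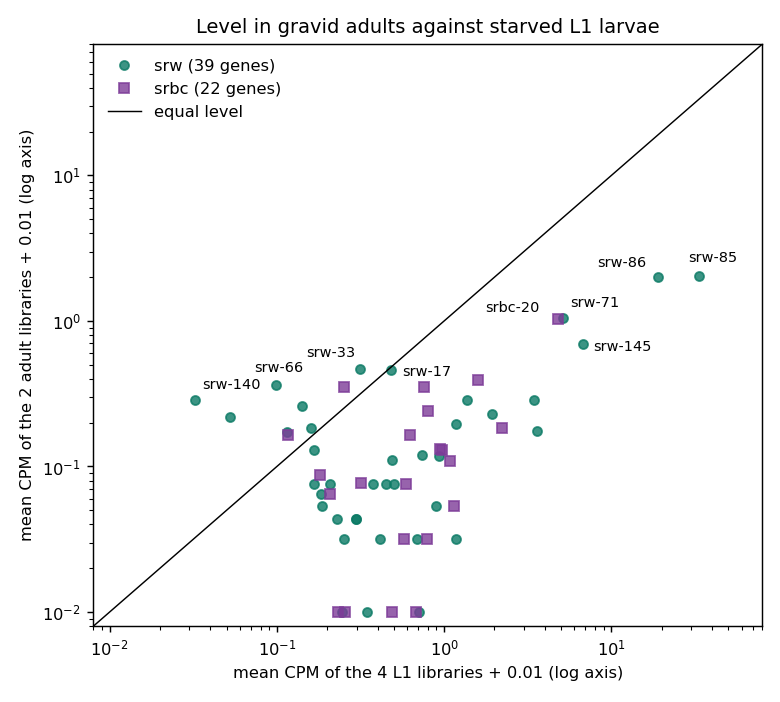
Mean CPM of the 2 adult libraries (y axis) against mean CPM of the 4 L1 libraries (x axis) for the 61 members, both plus 0.01 and on log axes; circles are srw and squares srbc genes, and the line marks equal levels. Of the 61 genes, 52 lie below the line, and srw-85 and srw-86 are the highest in both stages.

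Other genes of sensory neurons, and genes of body wall muscle and intestine, were mostly lower in adults as well. Of the other chemoreceptor families 277 of 321 tested genes were lower and 11 higher, and 32 of 33 ciliated sensory neuron genes and 18 of 18 pan-neuronal genes were lower. So were 6 of 7 body wall muscle genes, with a median of -2.60, and 7 of 9 intestine genes, with a median of -1.16. The fall was thus not limited to genes of neurons, but not every tissue list shared it. Of 7 hypodermis genes 5 were higher and 1 lower in adults, with a median of 2.001. The medians were -3.42 for the srw and srbc members tested, -3.003 for the other chemoreceptor families, -2.34 for the ciliated neuron genes and 0.06 for all genes. These medians were not tested against each other, and the filter acts on each of them. Transcripts of adult tissues rose in the same contrast: the summed level of 6 yolk protein genes was 42440 CPM in ebax-1 adults and 37940 CPM in WT adults, against 3.51 and 3.45 CPM in ebax-1 and 2.71 and 4.005 CPM in WT L1 larvae, and 12 of 12 germline genes were higher. Their part in the lower CPM of the receptor genes was not tested.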

How the data were processed

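The authors deposited raw counts per gene. Per the study's methods and the submitters' notes, STAR 2.7.1a aligned single-end reads, and featureCounts counted the uniquely placed ones over coding sequence of the WS245 annotation, by strand. Reads shared by near-identical receptor genes and untranslated regions are therefore not counted. Symbols (19620 genes) and WBcel235 positions (20159) came from the reference tables. L1 genotypes were compared in the 4 L1 libraries with edgeR 4.0.16 (R 4.3.3; filterByExpr, minimum count 10; TMM; two-sided quasi-likelihood F-test; Benjamini-Hochberg over all genes, threshold 0.05). Stage and interaction contrasts came from 4 groups over 6 libraries. SEs of edgeR log2 fold changes were derived from the test, as the absolute log2 fold change divided by the square root of the F statistic. No exact permutation test could pass this threshold with groups of 2. CPM used 6-library TMM factors, and adult log2 values a prior count of 1. Alternatives were other scalings and filters, DESeq2 1.42.0, a replicate block and leaving out each L1 library. The scripts were tested on simulated data.

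Genes named were members called in L1 larvae, the 10 most abundant srw and srbc members in L1 and 5 in adults, members at least 2-fold changed in adults with 50 counts, the 5 smallest interaction p-values, srbc-64 and srbc-66, genes near the count limit, neighbors of called members, and up to 3 called genes a list. The members srw-17, srw-66, srw-79, srw-82, srw-108, srbc-3 and srbc-5 were named after their values were seen. Members and lists were chosen with earlier results of these data known. Mutant and WT L1 pairs differed by more than counting noise (chi-square per gene 6.42 and 3.98), so no library was treated as a duplicate.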

Additional observations from a re-analysis of the deposited data

How the results depend on the processing

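In L1 larvae, DESeq2 called 2 members lower (srw-85 and srbc-24) in place of 4; it gave an adjusted p for only 8 members, none for srbc-16. No alternative reversed the 4 members called in L1 larvae or, between stages, the 5 most abundant in adults; the signs of the other members called between stages were not followed. In that comparison the uncalled srw-17 ranged from -1.11 to 0.43 and srw-33 from -1.39 to 2.38 on the log2 scale. Scaling by total counts called 1 member higher, srw-86, moved the median of all genes to 0.17 and turned the split of all calls to 2341 higher and 728 lower, against 907 and 1371; DESeq2 gave 429 and 896. Leaving out 1 L1 library at a time gave 0 to 1 members higher: srw-79 without WT replicate 2 and srw-145 without ebax-1 replicate 1. The replicate block called the same 4 members lower and 0 higher, with 871 higher and 1378 lower of all genes; same-numbered libraries did not deviate together (correlation -0.00718), so the numbers are not taken to pair them. In adults against L1 larvae, 2 members (srw-66 and srw-140) were higher with no filter and 2 with a minimum of 10 counts in sum, and 1, srw-33, in the mutant libraries alone; 24 to 41 were lower. With a minimum of 20 adult counts, 2 members (srw-85 and srbc-20) were at least 2-fold lower in ebax-1 adults. The causes were not tested. Depth limits these comparisons: 40 of 61 members could not be tested in L1 larvae.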
